A study of Mus musculus with 12 samples.

Results

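The genes described here encode the proteins of the junctions that hold epithelial cells together: claudins, occludin and other tight junction proteins, classical and desmosomal cadherins, desmosomal plaque proteins and connexins. They were chosen by name from the deposited gene table, with 1 cadherin left out by the rule, and were kept where the 12 libraries together held at least 10 counts. Of 78 genes with a matching name, 50 were kept, out of 55421 genes in the table. They comprise 12 claudins, 5 other tight junction genes, 11 cadherins, 5 desmosomal cadherins, 6 plaque proteins and 11 connexins. The smallest kept total was 11 counts, in Cldn1 and Gja3, and the highest total left out was 9, reached by Cldn11 and Dsc3 among others. A low-count filter left 35 of the 50 genes for testing, and the other 15 had at most 0.472 CPM in any library, where CPM is a gene's count relative to the size of its library.

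Polyadenylated RNA was sequenced from gastric organoids of wild-type mice, epithelial cultures grown in Matrigel from isolated glands of the corpus (the body of the stomach) or of the antrum (its outlet end). There were 3 lines per region (8025, 8026 and 8028), described as independent, and each line gave 1 vehicle and 1 inhibited library. Inhibited cultures received XAV939, which blocks tankyrase and so dampens the Wnt pathway, at a labelled 1 mM, together with Noggin at 100 ng/mL and without added Wnt and R-spondin, for 24 hours from day 4 after passage. Vehicle cultures received DMSO in normal medium, which held 50% L-WRN conditioned medium and 20% serum for corpus or 10% for antrum. The drug therefore cannot be told apart from the medium change, nor region from serum. Nothing says that the lines came from separate animals, so p-values measure the spread between these cultures.

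Library totals ranged from 18858022 to 31656696 counts. In all libraries the epithelial keratins Krt8, Krt18 and Krt19 were abundant, with group means of at least 1405 CPM. Of the parietal cell genes that define mature corpus, Atp4b averaged 0.00314 CPM over the 12 libraries and Atp4a 0.834 CPM. Gast, the antral gastrin gene, averaged 0.0324 CPM. Lgr5, a Wnt-dependent stem cell receptor, stood at 40.0 to 51.2 CPM in vehicle and 0.206 to 1.83 CPM in inhibited libraries. Both libraries of corpus line 8028 lay towards the antral ones on the second principal component, and its inhibited library kept more of the Wnt target Axin2 (18.7 CPM) than corpus lines 8025 (3.71) and 8026 (5.39). Genes resembling ribosomal RNA took 17.2% and 6.87% of counts in antral vehicle lines 8025 and 8028, and no more than 3.46% elsewhere.

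Tight junctions close the space between neighbouring cells. Claudins form their strands, and different claudins make the seal tighter or open it to ions and water, while Tjp scaffolds tie the strands to actin. Adherens junctions hold cells together through cadherins that bind β-catenin, the protein that also carries the canonical Wnt signal. Desmosomes anchor keratin filaments, and gap junctions built of connexins pass ions and small molecules between cells. In the stomach these junctions form part of the barrier against acid.

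Most junction genes that changed under inhibition rose, and most of those changes were modest. In corpus 14 of the 35 tested genes rose and 4 fell, and in antrum 16 rose and 4 fell. Over all 16152 genes tested, the shares called were 15.5% higher and 15.4% lower in corpus, and 16.3% higher and 13.4% lower in antrum. The junction genes' shares were 40.0% higher and 11.4% lower in corpus and 45.7% higher and 11.4% lower in antrum. Their median log2 change was 0.19 in each region, against -0.04 over all genes in each region. Abundant genes were called higher more often in general: among genes of at least 100 CPM the background was 36.4% higher in corpus and 37.6% in antrum, and there 9 and 10 of 14 junction genes rose. Tests were edgeR quasi-likelihood tests with Benjamini-Hochberg adjustment over all genes and a threshold of 0.05.

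The calls largely fell on the same genes in both regions. Higher in both were 14 genes and lower in both 3, while 1 (Cldn2) was called in corpus alone and 3 (Cdh24, lower, and F11r and Ocln, higher) in antrum alone. No gene was called in opposite directions. Each of the 18 corpus calls and 20 antral calls had the same sign in 3 of 3 lines. Since the genes were called on these same libraries, that agreement is largely built in and adds no separate support. Only 3 calls in each region reached a 2-fold change: Gjb1, Gja1 and Cldn2 in corpus, and Gjb1, Gja1 and Cdh3 in antrum. Scaling by total counts moved the median over all genes in corpus from -0.04 to -0.19, and the corpus split was then 6 higher and 6 lower, beside 8.28% higher and 23.1% lower over all genes. In antrum that scaling gave 10 higher and 4 lower, beside 11% and 13.8% over all genes. The corpus counts fell to 8 higher and 2 lower without both libraries of line 8026, beside 8.62% and 6.98% over all genes. They held 2 lower without corpus vehicle line 8025 or corpus inhibited line 8026 alone, beside 10.7% and 10.2% lower over all genes. The antral counts fell to 8 higher without both libraries of line 8026, beside 10% over all genes. They fell to 2 lower without both libraries of line 8028 (7.8% over all genes) or with vehicle lines 8025 and 8028 of antrum left out (5.29%).

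**Figure D1:**
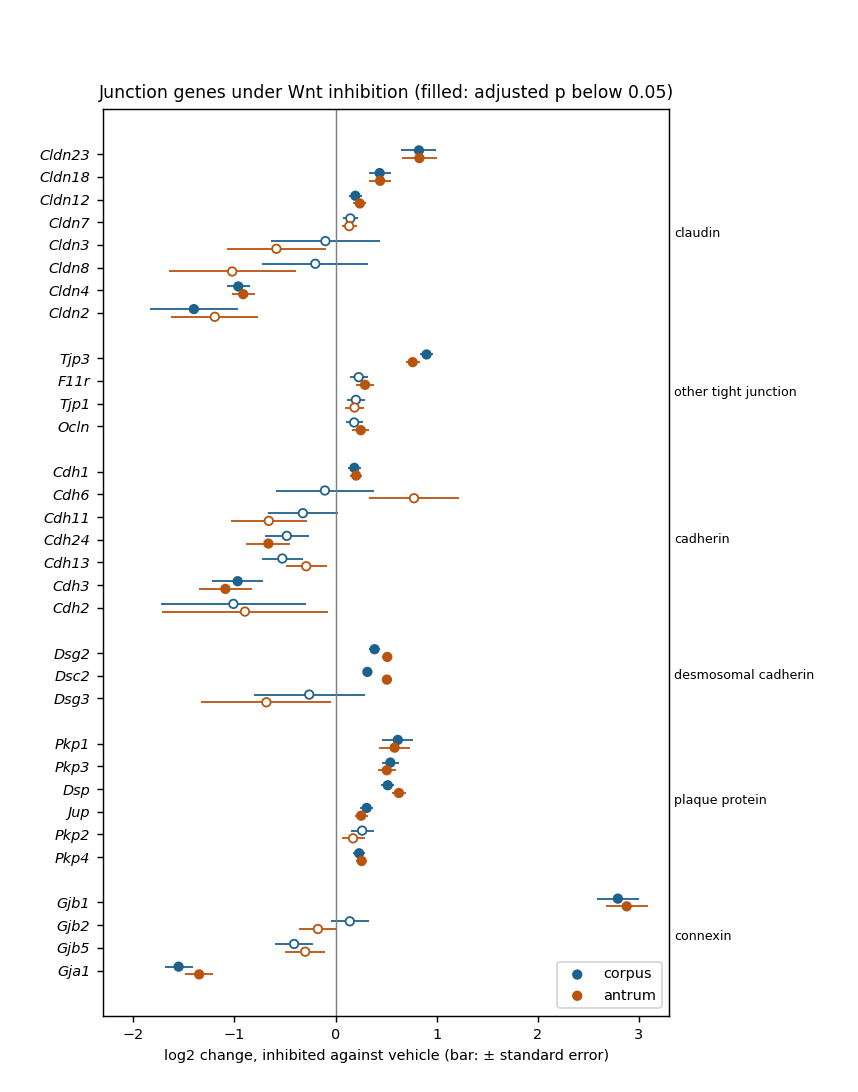
Fitted log2 change from vehicle to inhibited (horizontal axis, bars ± standard error) for tested junction genes, grouped by family, in corpus (blue) and antrum (orange), with filled points where the edgeR adjusted p was below 0.05. Gjb1 stands alone on the right at 2.79 and 2.88, while Gja1, Cldn4 and Cdh3 lie on the left in both regions.

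The connexins showed the widest changes. Gjb1, a beta connexin known from liver and exocrine epithelia, was at 16.3, 13.0 and 14.4 CPM in corpus vehicle lines 8025, 8026 and 8028, and at 123, 103 and 77.0 CPM after inhibition. In antrum it went from 14.2, 11.4 and 19.5 CPM to 119.6, 102 and 109.7 CPM in the same order of lines. Every inhibited library lay far above every vehicle library, and corpus line 8028 was the lowest of the inhibited ones. The fitted rise was 6.92-fold in corpus (log2 2.79 ± 0.21 SE, adjusted p 5.01e-06) and 7.36-fold in antrum (2.88 ± 0.21, adjusted p 3.95e-06).

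Gja1, the alpha connexin found in many cell types, moved the other way. Its corpus vehicle values were 56.4, 62.6 and 57.0 CPM and its inhibited values 19.5, 16.0 and 24.5 CPM. In antrum 41.2, 46.2 and 47.6 CPM became 15.8, 17.2 and 20.0 CPM. The groups did not overlap in either region, and Gja1 fell 2.93-fold in corpus (log2 -1.55 ± 0.14, adjusted p 1.6e-05) and 2.55-fold in antrum (-1.35 ± 0.14, adjusted p 3.67e-05). Per kilobase of exon, Gjb1 stood 1.25 to 2.47 times above Gja1 in the 6 vehicle libraries and 18.9 to 45.4 times above it in the 6 inhibited ones.

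No other connexin was called. Gjb2 and Gjb5, beta connexins best known from skin and other surface epithelia, had log2 changes between -0.41 and 0.14 with adjusted p of 0.12 or more. The summed connexin level was 127 to 128 CPM in corpus vehicle and 165 to 197 CPM in corpus inhibited libraries, and 117 to 123 and 176 to 196 CPM in antrum. On the scale of CPM per kilobase, the mean share of Gjb1 in the corpus family total was 20.8% ± 1.43 (SD, n = 3) in vehicle and 66.0% ± 8.26 after inhibition. In antrum it was 20.3% ± 5.47 and 68.2% ± 1.40. Over the 12 libraries Gjb2 averaged 10.5 CPM per kilobase, against 35.3 for Gjb1, but in the vehicle groups Gjb2 (10.12 in corpus and 11.02 in antrum) had the higher mean of these 2 genes, against 8.53 and 8.81. The 5 connexins under the filter, Gja3 to Gja6 and Gjb6, had at most 0.251 CPM in any library.

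The promoters of both connexins and of Cldn18 are shown because these 3 genes passed the threshold in both regions, Gja1 falling and the others rising, and each holds a match to another motif. Sequences and start sites are from RefSeq on GRCm38.p6, each with the 250 bases before the start, 5′ to 3′ on the gene's strand, with a motif match in capitals. The Gja1 promoter (plus strand, chr10:56377050-56377299) holds an AP-1 match that begins 19 bases before the start. The one shown for Gjb1 (plus strand, chrX:101383482-101383731) belongs to 1 of its 4 listed starts and holds an E-box match 168 bases before it. The promoters of the other listed Gjb1 starts held no match to any motif searched. The one shown for Cldn18 (minus strand, chr9:99710064-99710313) belongs to the downstream of its starts and holds a TCF/LEF match 227 bases before it. The promoter of the upstream Cldn18 start held no match to any motif searched.
Gja1: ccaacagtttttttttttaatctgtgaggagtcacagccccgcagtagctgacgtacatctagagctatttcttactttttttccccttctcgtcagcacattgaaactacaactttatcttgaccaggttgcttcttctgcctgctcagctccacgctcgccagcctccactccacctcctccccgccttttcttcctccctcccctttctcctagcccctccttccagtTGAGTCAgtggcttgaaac
Gjb1: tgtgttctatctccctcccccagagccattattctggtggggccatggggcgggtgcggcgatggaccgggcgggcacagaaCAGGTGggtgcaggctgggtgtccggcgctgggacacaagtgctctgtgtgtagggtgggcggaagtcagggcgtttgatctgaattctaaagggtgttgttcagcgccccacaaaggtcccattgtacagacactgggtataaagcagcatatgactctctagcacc
Cldn18: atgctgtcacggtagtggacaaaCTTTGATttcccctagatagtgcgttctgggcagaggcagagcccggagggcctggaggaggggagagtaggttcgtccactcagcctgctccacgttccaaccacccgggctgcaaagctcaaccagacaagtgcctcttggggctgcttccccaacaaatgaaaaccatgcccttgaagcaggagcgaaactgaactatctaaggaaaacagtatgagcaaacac

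The search covered both strands of 41 promoters of 30 junction genes for 4 motifs, none of which contains another. CTTTGAT (TCF/LEF) occurred in 1 of the 41 and in 3.21% of all 32851 promoters. CACCTG (the E-box of SNAI and ZEB factors) occurred in 10 and 17.2%, TGANTCA (AP-1) in 4 and 6.75%, and AACNGGTT (grainyhead-like) in 1 and 1.79%. The only TCF/LEF match among these promoters was that of Cldn18, a share of 2.44% that lies near the 3.21% over all promoters. Any link between these motifs and the direction of a gene's change was not tested. A match is a string of letters and not a measured site.

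**Figure D2:**
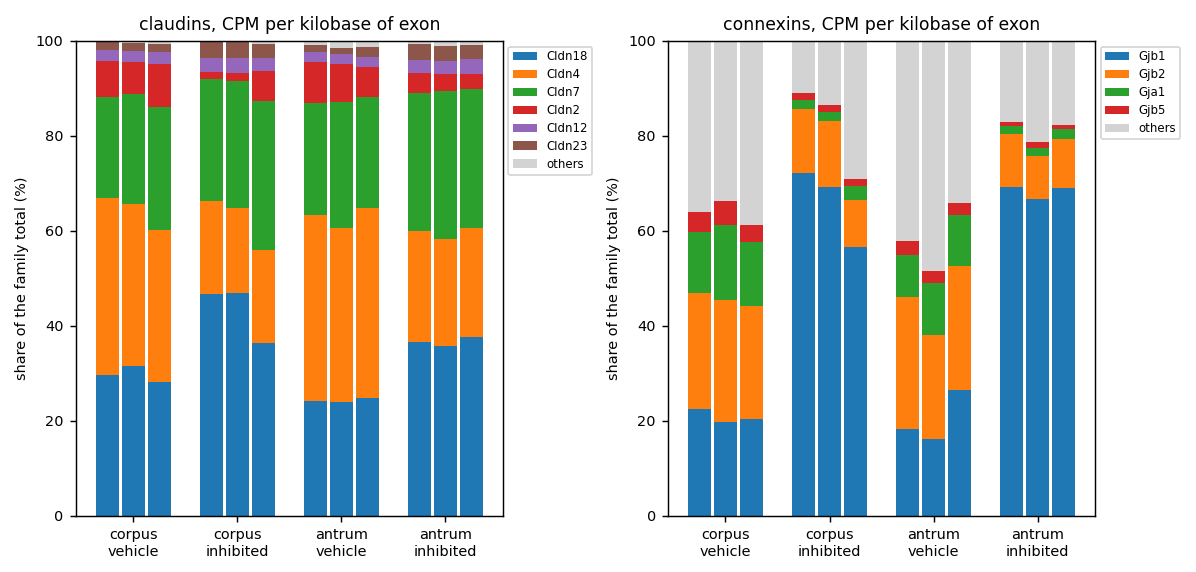
Share of each gene in the summed CPM per kilobase of its family (vertical axis, percent) for claudins (left) and connexins (right), with 1 bar per library in the order of lines 8025, 8026 and 8028, and family genes not named in the legend in grey. Gjb1 takes 16.1 to 26.5% of the connexin total in vehicle and 56.6 to 72.1% in inhibited libraries, and the leading claudin is Cldn4 in every vehicle and Cldn18 in every inhibited library.

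The claudins changed in both directions. Cldn18, the claudin typical of stomach and lung, rose 1.35-fold in corpus and 1.36-fold in antrum. Cldn23 rose 1.77-fold and 1.78-fold and Cldn12 1.15-fold and 1.18-fold, while Cldn4, which tightens the barrier to sodium, fell 1.95-fold and 1.88-fold. Cldn2, which forms pores for cations and water, fell 2.64-fold in corpus. In the deposited counts the lung and stomach forms of Cldn18, which have different first exons, are summed.

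Cldn18 measured 758, 729.6 and 636.5 CPM in corpus vehicle lines 8025, 8026 and 8028, and 1086, 989 and 798 CPM after inhibition. In antrum 655, 601 and 697 CPM became 900, 865 and 886 CPM. The vehicle and inhibited groups were apart in both regions, with the smallest gap at line 8028 of corpus. The log2 change was 0.44 ± 0.11 in each region (adjusted p 0.00985 in corpus and 0.00963 in antrum). The corpus call was lost with total-count scaling (0.28, adjusted p 0.0755), with only the groups compared (adjusted p 0.0552) and when the pair of line 8026 libraries was left out (adjusted p 0.0756). In antrum, leaving out the pair from line 8025 or 8026 ended the call (adjusted p 0.0762 and 0.0799).

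Cldn4 averaged 184.6 CPM per kilobase in corpus vehicle and 233.1 in antral vehicle, above Cldn18 (158.9 and 146.0), and 94.8 and 123.8 after inhibition, below Cldn18 (215 and 198). Its corpus vehicle values were 389, 322 and 295 CPM against 187, 153 and 177 CPM after inhibition, and its antral values 435, 375 and 459.9 CPM against 235, 220.1 and 219.8 CPM. No inhibited library reached any vehicle library of its region. The fall was -0.96 ± 0.11 on the log2 scale in corpus (adjusted p 8.94e-05) and -0.91 ± 0.11 in antrum (adjusted p 0.000122). Per kilobase, the ratio of Cldn18 to Cldn4 was 0.613 to 0.924 in vehicle and 1.56 to 2.64 in inhibited libraries.

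Cldn2 depended on the line. In corpus lines 8025, 8026 and 8028 it went from 144, 115 and 151 CPM to 23.8, 28.5 and 102.5 CPM. The antral values were 171, 149 and 135 CPM in vehicle and 79.1, 62.0 and 57.7 CPM after inhibition. Inhibited corpus line 8028 thus lay well above the other inhibited corpus lines and below all corpus vehicle lines. Of the inhibited libraries it also kept the most Axin2, and any link between Cldn2 and Axin2 there was not tested. The log2 change was -1.40 ± 0.43 in corpus (adjusted p 0.0301) and -1.19 ± 0.43 in antrum, where it missed the threshold (adjusted p 0.0575). Without inhibited line 8028 the corpus change was -2.36. The corpus call was lost in 9 of 19 alternatives, with an adjusted p of up to 0.157, among them the fits without corpus vehicle line 8025, corpus vehicle line 8028, corpus inhibited line 8025 or corpus inhibited line 8026. With corpus line 8028 left out of the shared estimate of spread, the antral fall passed (-1.17, adjusted p 0.000166).

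Cldn7, a claudin of the lateral membrane, did not pass in either region (log2 0.15 ± 0.08 and 0.14 ± 0.08, adjusted p 0.168 and 0.204). After inhibition its mean level per kilobase, 138 in corpus and 161.5 in antrum, lay between those of Cldn18 and Cldn4. In vehicle it was 124.8 and 147.0, below Cldn4 in both regions, and in antrum it did not differ from Cldn18 beyond their spread (SD 2.93 and 10.8). The rise of Cldn23 was lost without both libraries of line 8026 in corpus (adjusted p 0.0519) and of line 8025 in antrum (adjusted p 0.0587). The rise of Cldn12 was lost in 11 of 19 alternatives in corpus and 7 of 20 in antrum, including the fits without corpus vehicle line 8026 or 8028, corpus inhibited line 8025 or 8026, or antral inhibited line 8026 or 8028 (adjusted p 0.0561 to 0.126). With total-count scaling the log2 change of Cldn12 was 0.039 in corpus (adjusted p 0.753) and 0.171 in antrum (adjusted p 0.16). The summed claudin level was 1415 to 1606 CPM in corpus vehicle and 1468 to 1659 CPM in corpus inhibited libraries, which overlapped, and 1493 to 1670 and 1566 to 1628 CPM in antrum. Cldn18 took 29.8% ± 1.73 of the family total per kilobase in corpus vehicle and 43.3% ± 6.08 after inhibition, and 24.2% ± 0.43 and 36.7% ± 0.92 in antrum. Cldn3 and Cldn8 were at most 9.60 and 0.638 CPM and were not called, although Cldn3 passed in antrum with the line as a replicate block (-0.59 ± 0.18, adjusted p 0.0238). Cldn1, Cldn9, Cldn15 and Cldn20 were not tested and did not exceed 0.428 CPM.

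**Figure D3:**
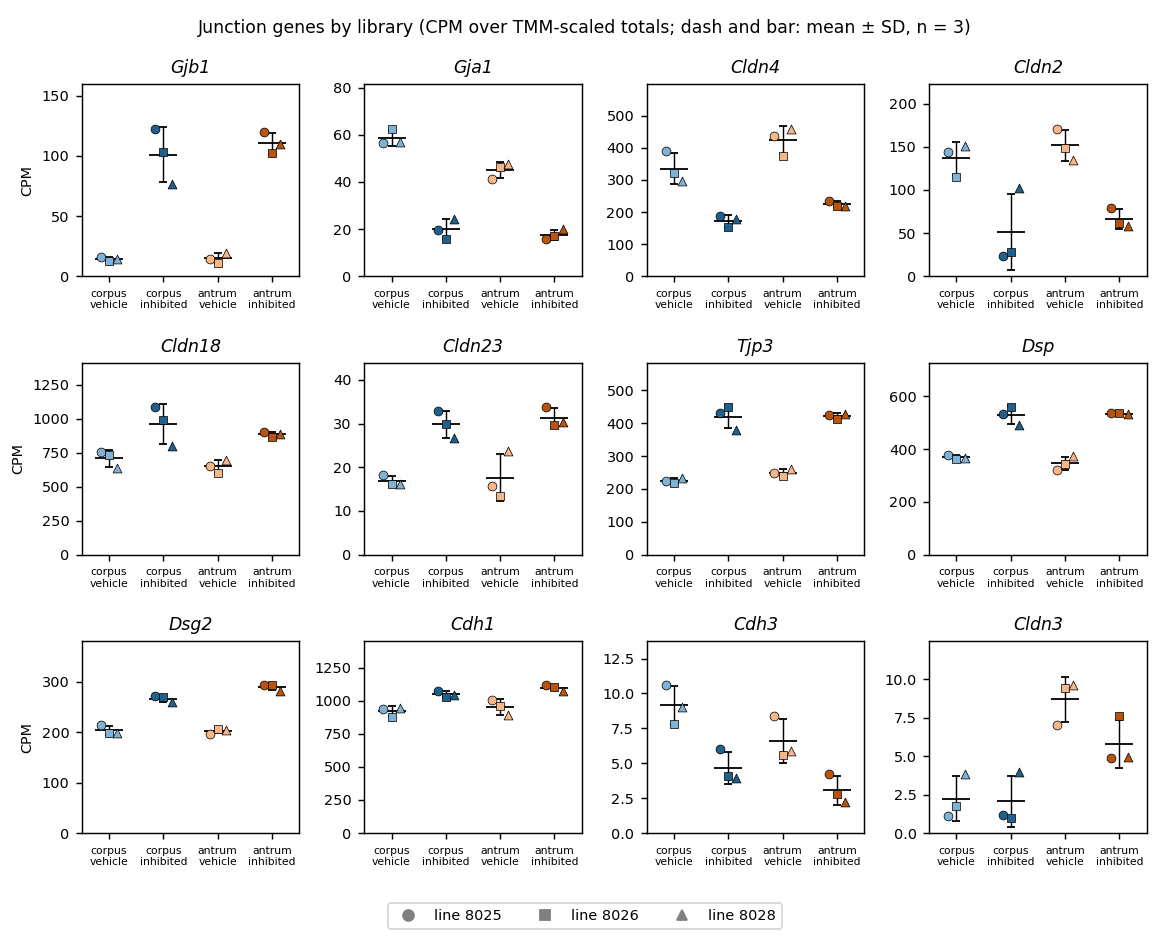
CPM over TMM-scaled totals (vertical axis, from 0) of 12 junction genes in the 4 groups, with 1 point per library, a marker for each line and the mean ± SD (n = 3). Gjb1, Tjp3 and Dsp are higher in every inhibited library, Gja1 and Cldn4 lower, and inhibited corpus line 8028 stands apart for Cldn2.

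Of the other tight junction genes, the scaffold gene Tjp3 changed most. It stood at 224, 218 and 235 CPM in corpus vehicle and 431, 449.8 and 380.2 CPM in corpus inhibited libraries, and at 249, 239.7 and 259.6 CPM and 426, 413 and 429.7 CPM in antrum. The groups were far apart, and the rise was 1.87-fold in corpus (log2 0.90 ± 0.07, adjusted p 5.01e-06) and 1.70-fold in antrum (0.76 ± 0.07, adjusted p 1.35e-05).

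Tjp1, a scaffold gene of the same family, was measured at 264, 272 and 235 CPM in corpus vehicle and 318, 311 and 257 CPM after inhibition, and at 256, 218 and 241 CPM and 278, 262 and 274 CPM in antrum. Its log2 changes of 0.20 ± 0.09 and 0.19 ± 0.09 did not pass (adjusted p 0.116 and 0.142). With the line as a replicate block they did (0.20 and 0.19, adjusted p 0.015 and 0.0189). Without inhibited corpus line 8028 the corpus change was 0.32 and passed (adjusted p 0.00543). Tjp1 stayed uncalled in 16 of 19 alternatives in corpus and 17 of 20 in antrum. Its change was as low as 0.044 in corpus and 0.124 in antrum, with adjusted p of up to 0.74 and 0.393.

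Occludin (Ocln), a strand protein, measured 85.6, 82.2 and 81.4 CPM in corpus vehicle and 103.6, 90.8 and 88.6 CPM in corpus inhibited libraries. In antrum it was 79.0, 77.6 and 95.0 CPM and then 101, 98.9 and 98.9 CPM, where vehicle line 8028 lay close to the inhibited values. Its rise passed in antrum (log2 0.25 ± 0.08, adjusted p 0.0409) and not in corpus (0.18 ± 0.08, adjusted p 0.116). F11r, a junctional adhesion molecule of the immunoglobulin family, measured 239, 229.6 and 208.5 CPM and then 290.4, 269 and 234 CPM in corpus, which overlapped. In antrum F11r went from 214, 195 and 234 CPM to 270.4, 256 and 260.3 CPM. Its rise passed in antrum (0.29 ± 0.09, adjusted p 0.0298). In corpus it missed (0.23 ± 0.09, adjusted p 0.0745) but passed with the replicate block (adjusted p 0.012). Without inhibited corpus line 8028 both passed there (adjusted p 0.00507 for F11r and 0.0295 for Ocln). In corpus F11r stayed uncalled in 15 of 19 alternatives, with a change as low as 0.072 and adjusted p of up to 0.605. Ocln stayed uncalled there in 18 of 19, with a change as low as 0.027 and adjusted p of up to 0.863. The antral calls of F11r and Ocln were each lost in 9 of 20 alternatives, including those without antral vehicle line 8025 or 8026 or any single inhibited antral library (adjusted p 0.0564 to 0.111).

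Most of the tested desmosome genes rose by small amounts. Dsg2 and Dsc2, the desmosomal cadherins of simple epithelia, and the plaque genes Dsp, Jup, Pkp1, Pkp3 and Pkp4 passed in both regions, that is 2 of 3 tested desmosomal cadherins and 5 of 6 plaque proteins. Over all genes 15.5% were called higher in corpus and 16.3% in antrum, and among genes of at least 100 CPM 36.4% and 37.6%. Desmoplakin (Dsp), which ties the plaque to keratin, went from 379, 364 and 365 CPM to 533, 560.1 and 492 CPM in corpus. In antrum 323, 344 and 372 CPM became 536, 538 and 532 CPM. All inhibited libraries exceeded all vehicle libraries by over 100 CPM, with log2 changes of 0.52 ± 0.07 and 0.63 ± 0.07 (adjusted p 0.00016 and 4.02e-05).

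Plakoglobin (Jup), which sits in desmosomes and adherens junctions, measured 285.5, 259 and 291 CPM in corpus vehicle and 335, 341 and 358 CPM after inhibition. In antrum the values were 312.5, 286 and 278.5 CPM and then 356, 350.2 and 339 CPM. The groups did not overlap, and the rise was 1.24-fold (adjusted p 0.00358) and 1.19-fold (adjusted p 0.0113). Dsg2 rose 1.31-fold and 1.43-fold, and Dsc2 1.24-fold and 1.42-fold. The plakophilins Pkp1 and Pkp3 rose 1.42 to 1.53-fold and Pkp4 1.18 to 1.20-fold. The antral call of Pkp1 was lost without inhibited line 8025 (adjusted p 0.067), and without both libraries of line 8026 the calls of Pkp1 and Pkp4 were lost in both regions (adjusted p 0.0583 to 0.1) and that of Jup in antrum (adjusted p 0.1). Pkp2 did not pass (log2 0.26 ± 0.11 and 0.17 ± 0.11, adjusted p 0.101 and 0.277), but did with the replicate block (adjusted p 0.00512 and 0.0365). Dsg3, a cadherin of stratified epithelium, stayed at or below 1.10 CPM and was not called.

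These small rises depended on the scaling, most of all in corpus. With total-count scaling no desmosomal cadherin and 3 of 6 plaque proteins passed there, and 2 of 3 and 3 of 6 did in antrum. Over all genes that scaling called 8.28% higher in corpus and 11% in antrum. Dsc2, Dsg2, Jup and Pkp4 had adjusted p of 0.131, 0.0703, 0.178 and 0.569 in corpus under that scaling, while Dsp and Pkp3 passed in both regions under every alternative run. With vehicle lines 8025 and 8028 of antrum left out, 2 of 6 plaque proteins passed in antrum, beside 10.8% higher over all genes. Markers of squamous epithelium, which is rich in desmosomes, did not move together. Their summed level was 9.31 to 14.5 CPM in vehicle and 25.6 to 40.1 CPM in inhibited libraries, with Krt13 and Ivl up in both regions. Of 6 tested squamous markers 2 rose in corpus, and 2 rose and 1 (Lor) fell in antrum. Krt5, Krt14 and Krt6a were not called in either region. The basal cell regulator Trp63 averaged 0.0673 CPM, and Krtdap was at 0 in every library. Of 8 gastric pit and gland genes, 5 rose and 3 fell in each region. The surface mucin gene Muc5ac had group means of 0.814 and 42.4 CPM in corpus and of 0.663 and 65.6 CPM in antrum (vehicle and inhibited). The gland mucin gene Muc6 fell (log2 -4.04 and -3.38), as did the chief cell genes Pgc (-3.21 and -1.75) and Cblif (-4.96 and -3.39). In these bulk libraries a change in the number of cells of a type cannot be told apart from a change in RNA per cell, and the part of these markers in the junction results was not tested.

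**Figure D4:**
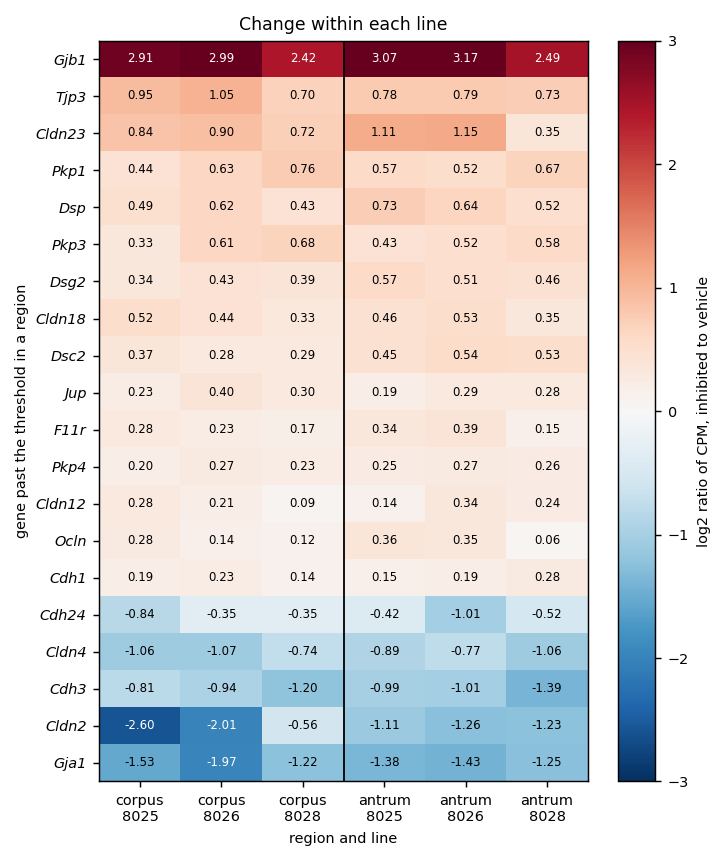
Log2 ratio of CPM, inhibited to vehicle, within each of the 3 corpus and 3 antral lines (columns) for junction genes past the threshold in at least 1 region (rows, ordered by mean change). Every cell has the sign of its row, which choosing the rows on the same libraries favours. The Cldn2 value of corpus line 8028 is -0.56 against -2.60 and -2.01 in the other corpus lines.

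Among the cadherins the abundant Cdh1 changed little and the scarcer Cdh3 fell. E-cadherin (Cdh1), the main adhesion molecule of adherens junctions, averaged 219.9 CPM per kilobase over the 12 libraries, the highest such mean of the 50 genes, although Cldn4 (233.1) lay above it (208.5) in antral vehicle. It measured 940.3, 877 and 949 CPM in corpus vehicle and 1074, 1029 and 1044 CPM in corpus inhibited libraries. In antrum it went from 1009, 963 and 890.1 CPM to 1117, 1101 and 1078 CPM. The groups were apart, but the rise was only 1.14-fold (adjusted p 0.039) and 1.15-fold (adjusted p 0.0268). It was lost in 9 of 19 alternatives in corpus and 10 of 20 in antrum, and leaving out corpus vehicle line 8026, either of corpus inhibited lines 8025 and 8026, antral vehicle line 8028 or any single inhibited antral library was enough (adjusted p 0.0518 to 0.143). With total-count scaling the log2 change of Cdh1 was 0.03 in corpus (adjusted p 0.818) and 0.135 in antrum (adjusted p 0.271). Upper quartile scaling also ended both calls (adjusted p 0.0625 and 0.0877).

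P-cadherin (Cdh3), found in basal and progenitor compartments of several epithelia, fell. Its values were 10.6, 7.81 and 9.06 CPM in corpus vehicle and 6.02, 4.07 and 3.95 CPM after inhibition. In antrum 8.38, 5.57 and 5.84 CPM became 4.22, 2.76 and 2.23 CPM. The inhibited values lay below the vehicle values of their region throughout, with log2 changes of -0.97 ± 0.26 (adjusted p 0.0136) and -1.09 ± 0.26 (adjusted p 0.00928). The corpus call was lost without vehicle line 8025 (adjusted p 0.0582) or inhibited line 8026 (adjusted p 0.0634), and without both libraries of line 8026 or 8028 (adjusted p 0.0748 and 0.0557). In antrum the fall missed the threshold when the pair from line 8028 was left out (adjusted p 0.0526), and likewise for vehicle lines 8025 and 8028 (adjusted p 0.134).

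Cdh24, a little studied classical cadherin, fell 1.58-fold in antrum (adjusted p 0.0382), a call lost in 8 of 20 alternatives, including the fits without antral vehicle line 8025 or 8026 or antral inhibited line 8026 or 8028 (adjusted p 0.0833 to 0.172). In corpus its change of -0.48 ± 0.22 missed (adjusted p 0.116) and passed with the replicate block (adjusted p 0.019). Cdh13, a cadherin held by a lipid anchor, also passed in corpus with that block (-0.56, adjusted p 0.00378, against -0.53 and 0.0681 without it). N-cadherin (Cdh2), typical of mesenchymal and neural cells, was at 1.16, 0.319 and 0.233 CPM in corpus vehicle and 0.494, 0.171 and 0.188 CPM in corpus inhibited libraries. In antrum it was at 0.590, 0.264 and 0.250 CPM and then 0.246, 0.0373 and 0.274 CPM. These groups overlapped and the gene was not called (adjusted p 0.313 and 0.44). Markers of stromal cells summed to 0.430 to 1.77 CPM, and 8 of the 9 listed were too low to test.

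Other junction and polarity genes that are not part of the rule were counted as a separate list. It held 50 names, of which 48 were found in the gene table and 44 could be tested. In corpus 17 rose and 5 fell, with a median log2 change of 0.13, beside 15.5% higher and 15.4% lower over all genes. In antrum 18 rose and 4 fell, with a median of 0.16, beside 16.3% and 13.4% over all genes. Among all genes of at least 100 CPM, 36.4% were higher in corpus and 37.6% in antrum. With total-count scaling the counts were 11 and 8 in corpus, with a median of -0.03, beside 8.28% higher and 23.1% lower over all genes. In antrum that scaling gave 13 and 4, beside 11% and 13.8% over all genes. The plaque genes Ppl and Evpl, relatives of desmoplakin, rose by 0.74 ± 0.06 and 0.72 ± 0.08 in corpus and 0.71 ± 0.06 and 0.88 ± 0.08 in antrum. The desmosomal membrane gene Perp rose by 0.47 ± 0.06 and 0.71 ± 0.06, and cingulin (Cgn), a tight junction partner of the Tjp scaffolds, by 0.60 ± 0.07 and 0.59 ± 0.07. The catenin genes Ctnna1 and Ctnnb1, whose products link cadherins to actin, rose by 0.39 ± 0.06 and 0.25 ± 0.07 in corpus and 0.41 ± 0.06 and 0.22 ± 0.07 in antrum. The catenin genes Ctnnd1 (-0.005 in corpus and 0.008 in antrum) and Ctnnal1 (0.021 and -0.098) were not called in either region. The scaffold gene Amotl1 fell by 0.62 and 0.73. Epcam, an adhesion protein that interacts with claudins, fell in corpus (-0.47 ± 0.13, adjusted p 0.016) and did not pass in antrum (-0.30 ± 0.13, adjusted p 0.0965).

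No junction gene passed the threshold between regions by edgeR with all 12 libraries. In vehicle 0 of 35 were called, with a smallest adjusted p of 0.133, against 0.198% of all genes called in either direction. After inhibition 0 were called, against 0.0619% of all genes. The difference in response between regions gave 0 calls, against 0.00619% of all genes. At an unadjusted p under 0.05 there were 8 junction genes in vehicle, 8 after inhibition and 1 (Dsc2) for the difference in response. The share of all genes at that unadjusted threshold was not counted, so these numbers have no background here. DESeq2 called 1 gene in vehicle, Cldn3 (log2 1.97, adjusted p 0.00885). Over all 16152 genes it called 497 there, 1.47% higher and 1.6% lower. In the other regional tests DESeq2 called 0 junction genes. Limma-voom called 0 in all of these tests.

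Cldn3, a claudin of the intestine and other tight epithelia, was at 1.10, 1.75 and 3.86 CPM in corpus vehicle lines 8025, 8026 and 8028 and at 7.02, 9.46 and 9.60 CPM in antral vehicle. After inhibition it was at 1.20, 0.985 and 3.99 CPM in corpus and 4.89, 7.61 and 4.93 CPM in antrum. The regions did not overlap in either condition, and corpus line 8028 was the corpus line nearest to antrum. Its counts may include reads from the overlapping gene Wbscr25 on the opposite strand, with which it shares 40 exonic bases.

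Leaving out both libraries of corpus line 8028 brought 4 calls in vehicle and 10 after inhibition, among 1080 and 2386 over all genes. Those totals were 2.27% of genes higher and 4.33% lower in antrum in vehicle, and 9.13% and 5.46% after inhibition. In vehicle Cldn3 (6.14-fold, adjusted p 0.00143) and Cldn7 (1.22-fold) were then higher in antrum, and Cdh13 (1.63-fold) and Pkp2 (1.25-fold) higher in corpus. After inhibition 7 were higher in antrum, among them Cldn3 (5.29-fold), Cdh6 (3.13-fold), Cldn2 (2.53-fold), Cldn4 (1.32-fold) and Cldn7 (1.24-fold). Dsg3 (2.90-fold), Cdh13 (1.52-fold) and Pkp2 (1.39-fold) were higher in corpus. Without inhibited corpus line 8028 alone, 6 junction genes were called after inhibition, among 1883 over all genes (7.42% higher and 3.97% lower). The difference in response gave 0 calls among junction genes in each of these fits. Without both libraries of corpus line 8025 or of corpus line 8026 instead, 0 junction genes were called in vehicle or after inhibition. Corpus line 8028 was the one that lay towards antrum, so leaving it out is no independent test of a regional difference.

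**Figure D5:**
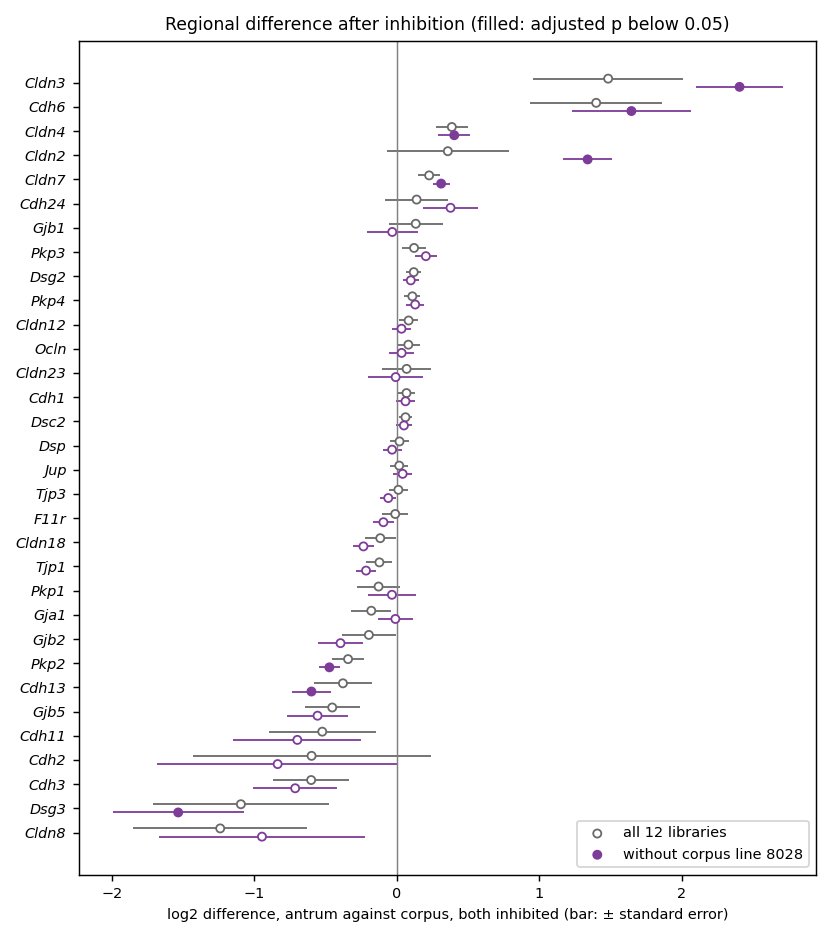
Fitted log2 difference between antrum and corpus after inhibition (horizontal axis, bars ± standard error) for tested junction genes with all 12 libraries (grey) and without both libraries of corpus line 8028 (purple), with filled points where the edgeR adjusted p was below 0.05. No grey point is filled, and the purple Cldn3 and Cldn2 points move right to 2.40 and 1.34.

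Genes on GRCm38, from GENCODE mouse release 21, all protein-coding and counted over their whole length, lie as follows. Gjb1 (ENSMUSG00000047797) spans chromosome X from 101376378 to 101385629, and Gja1 (ENSMUSG00000050953) chromosome 10 from 56377330 to 56402513. Cldn18 (ENSMUSG00000032473) spans chromosome 9 from 99689461 to 99717267, Cldn4 (ENSMUSG00000047501) chromosome 5 from 134945119 to 134946934, and Cldn2 (ENSMUSG00000047230) chromosome X from 139800828 to 139811386. Tjp3 (ENSMUSG00000034917) lies on chromosome 10 from 81273207 to 81291581, Dsp (ENSMUSG00000054889) on chromosome 13 from 38151294 to 38198577, and Cdh1 (ENSMUSG00000000303) on chromosome 8 from 106603351 to 106670246. Exons of 6 of the 50 genes overlap those of another gene, 5 of them on the opposite strand, including Dsp, Dsg2 and Tjp3. The strandedness of counting is not given in the sources used here, and such reads cannot be told apart. Dsg1c, an untested desmosomal cadherin with near-identical copies, is uncertain for that reason. It had 0.295 to 0.334 CPM in antral vehicle against 0.0319 to 0.0889 in corpus vehicle libraries, where 3 counts equal 0.0889 to 0.177 CPM in vehicle.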

How the data were processed

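PolyA RNA of 12 libraries was sequenced, per the labels' protocols. The authors deposited expected counts per gene, as the table's name says, and the values are whole numbers. STAR 2.7.8a, RSEM 1.3.3, FastQC 0.11.8, cutadapt 2.3 and build GRCm38 stand in the submitters' processing notes, with no settings. Of 55426 rows, 5 transgene rows holding 2 counts were left out, and 55240 identifiers matched GENCODE release 21. Replicates of a group all differed beyond sampling noise (their counts gave a chi-square of at least 10.0 per degree of freedom).

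Counts were tested in R 4.3.3 with edgeR 4.0.16: filterByExpr by group (16152 genes), TMM scaling and 1 robust quasi-likelihood fit by group over all 12 libraries, with 8 residual degrees of freedom, two-sided Benjamini-Hochberg adjusted p at 0.05 and no minimum fold. CPM use TMM-scaled totals, and levels per kilobase use the length of the merged exons.

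Alternatives were other scalings and filters, DESeq2 1.42.0, limma-voom (limma 3.58.1), only the groups compared, the line as a replicate block, and fits without single libraries or lines. Line numbers pair the libraries of a region, since the same lines were treated both ways (r of same-line deviations from group means 0.157 to 0.544). Lines that share a number between corpus and antrum had r of -0.104 to 0.277, and were treated as unpaired. The junction genes, lists and tests were chosen with earlier results of these data known. Values in every library are given for genes past the threshold with a log2 change of at least 1 and a mean of at least 1 CPM, and for a set list (Cdh1, Cdh2, Ocln, F11r, Tjp1, Jup, Dsp, Cldn2, Cldn18, Gja1, Gjb1). Cldn3, Cldn4 and Tjp3 were added after their values were seen, and promoters were taken from that set. Some genes are counted here but not reported singly or drawn.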

Additional observations from a re-analysis of the deposited data

How the results depend on the processing

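Gjb1, Gja1, Cldn4, Tjp3, Dsp and Pkp3 kept their direction and an adjusted p below 0.05 in both regions under every alternative run (19 for corpus, 20 for antrum). Over fits that left out 1 library or both libraries of a line, the counts ranged from 8 to 18 higher and 2 to 6 lower in corpus, 8 to 19 higher and 2 to 5 lower in antrum (19 and 5 without both libraries of corpus line 8028, which share the estimate of spread, and otherwise at most 15 and 4), 0 to 2 higher and 0 to 2 lower for antrum against corpus in vehicle, and 0 to 7 higher and 0 to 3 lower after inhibition. Over all genes, the same fits called 8.62% to 20.5% of genes higher and 6.98% to 21.2% lower in corpus. In antrum they called 10% to 20.8% higher and 6.19% to 17.8% lower. For antrum against corpus they called up to 2.27% higher and 4.33% lower in vehicle, and up to 9.13% and 5.46% after inhibition. Total-count scaling gave 6 genes higher in corpus (8.28% over all genes) and 10 in antrum (11% over all genes). DESeq2 called 1 gene higher in antral than in corpus vehicle, beside 1.47% higher over all genes. With vehicle lines 8025 and 8028 of antrum left out, 2 genes were lower in antrum, beside 5.29% over all genes. With the line as a replicate block, 17 genes were higher and 6 lower in corpus, beside 19.8% and 23.7% over all genes. In antrum 18 were higher and 5 lower, beside 20.6% and 20.2% over all genes. That block gave 0 calls for the difference in response. A block on the number shared by regions, chosen after seeing the data, gave 0 regional calls. Cdh2, not called, ranged in corpus from -1.63 to 0.06 over the fits that left out 1 library, with the change of sign without corpus vehicle line 8025. The cause of these changes was not tested. The depth limits genes near 3 counts, 0.0889 to 0.177 CPM, and such limits cover counting error only.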
